A study of Caenorhabditis elegans with 6 samples.

Results

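The cytochrome P450 genes of Caenorhabditis elegans were followed in messenger RNA from whole larvae. They were taken as every protein-coding row of the deposited table whose gene symbol is cyp- and a family number, which gave 74 genes of the 45343 features in the table. A further 6 rows with such symbols are pseudogenes and were kept apart. The table holds FPKM, a read level scaled to transcript length and library size, for 3 libraries of the wild-type strain N2 Bristol (WT) and 3 of blmp-1(tm548), all from bleach-synchronized larvae at mid-L3, the third larval stage. BLMP-1 is a zinc-finger transcription factor, the worm relative of mammalian Blimp-1. The labels name no further allele or treatment. They call the samples of a group biological replicates without saying how cultures were kept apart, so that p-values measure the spread between these samples.

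Cytochromes P450 are heme-thiolate enzymes that insert an oxygen atom into lipids, sterols and foreign compounds, with electrons passed on by the NADPH-cytochrome P450 reductase, EMB-8 in the worm. The intestine is the main site of the worm enzymes that meet foreign compounds, while other members act on fatty acids, on steroid hormone precursors and on eggshell lipids. By sequence, families 14, 23, 33, 34, 35 and 36 resemble the vertebrate CYP2 enzymes, families 13, 25 and 43 the CYP3 enzymes, families 29, 31, 32, 37 and 42 the CYP4 enzymes and family 44 the mitochondrial P450s. A family number and letter, such as 13A, is called a subfamily here.

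The targeted gene, blmp-1 (F25D7.3), was at 64.9, 71.1 and 75.2 FPKM in WT replicates 1, 2 and 3 and at 40.3, 36.9 and 38.0 in the mutant, so no mutant library reached a WT library. The steps between low FPKM values gave estimated depths of 7460000 to 8020000 reads per library, at which 1 FPKM over 1 kb is about 7.46 to 8.02 reads. Abundant genes of unlike tissues lay close together, at 202 FPKM for act-5, 196 for unc-54 and 238 for col-10, or 1.57, 1.52 and 1.85 estimated reads per base. The highest cyp gene lay well below them, with 93.4 FPKM and 0.726 reads per base. Whether the FPKM of abundant genes was held down in the processing was not tested. Markers of the intestine, where many of these enzymes are made, were tested in full, and 0 of 12 were called in either direction (limma adjusted p, with 0 higher and 2 lower at an unadjusted p under 0.05). Over all tested features 6.40% were called, and 11.1% were higher and 11.8% lower at that unadjusted threshold. A count of 0 or 1 in marker lists this short lies near that share. Their summed level was 1569 to 1675 FPKM in WT and 1544 to 1635 in the mutant, and no marker was at 0. Much of that sum came from genes near the level of the abundant ones above, such as asp-1 at 225 and act-5 at 202 FPKM. The markers lowest in level were elt-7, at 42.3 ± 0.953 and 43.4 ± 4.10 FPKM in WT and mutant, and elt-2, at 57.8 ± 4.09 and 55.5 ± 1.30 FPKM. Next came ges-1, at 65.02 ± 7.20 and 59.2 ± 2.02 FPKM. Groups did not overlap for 3 of the 12, where the share was 28.7% over all tested features. These were nhx-2 (108 ± 2.09 to 99.8 ± 1.26 FPKM), pept-1 (129 ± 3.48 to 120 ± 3.10) and pho-1 (134 ± 1.68 to 130 ± 1.76), all lower in the mutant. Of 10 epidermal markers 1 fell, the apical secretion gene che-14 (28.1 ± 3.14 to 8.56 ± 2.49 FPKM), and none of the germline (8), body wall muscle (5), pharynx (5), neuron (6) or late-stage (4) markers was called, with 1, 0, 1, 0 and 0 of them at an unadjusted p under 0.05. The late-stage markers varied most between libraries, with sums of 307, 416 and 117 FPKM in WT replicates 1, 2 and 3 and of 188, 107 and 139 FPKM in the mutant. WT replicates 1 and 2 stood above the other 4 libraries, and the median log2 difference of these markers was -0.80. The part of this spread in the cyp results was not tested. In whole animals, fewer cells of a type and less RNA per cell cannot be told apart.

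The 74 genes spanned a wide range of levels. A mean of at least 10 FPKM over the 6 libraries was reached by 36 genes, 25 lay between 1 and 10 FPKM, and 13 were below 1 FPKM. The median of the family was 9.21 FPKM, against 16 for all features above 0 in any library. The 7 highest genes, cyp-35A2, cyp-35C1, cyp-37A1, cyp-14A5, cyp-33C8, cyp-35A3 and cyp-42A1, made up 38.2% of the summed mean FPKM of the family. At the other end 5 genes were at 0 in at least 1 library, and cyp-14A3 was lowest with a mean of 0.0360 FPKM. Levels within a subfamily were often far apart: the highest gene exceeded the lowest 1773-fold in 14A, 764-fold in 33C, 106-fold in 35A and 71.7-fold in 13A. The 3 members of 31A, at means of 13.96, 15.8 and 16.01 FPKM, were an exception, with nearly equal levels. These are related copies between which the counting could split reads, and its part in the equal levels was not tested.

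**Figure D1:**
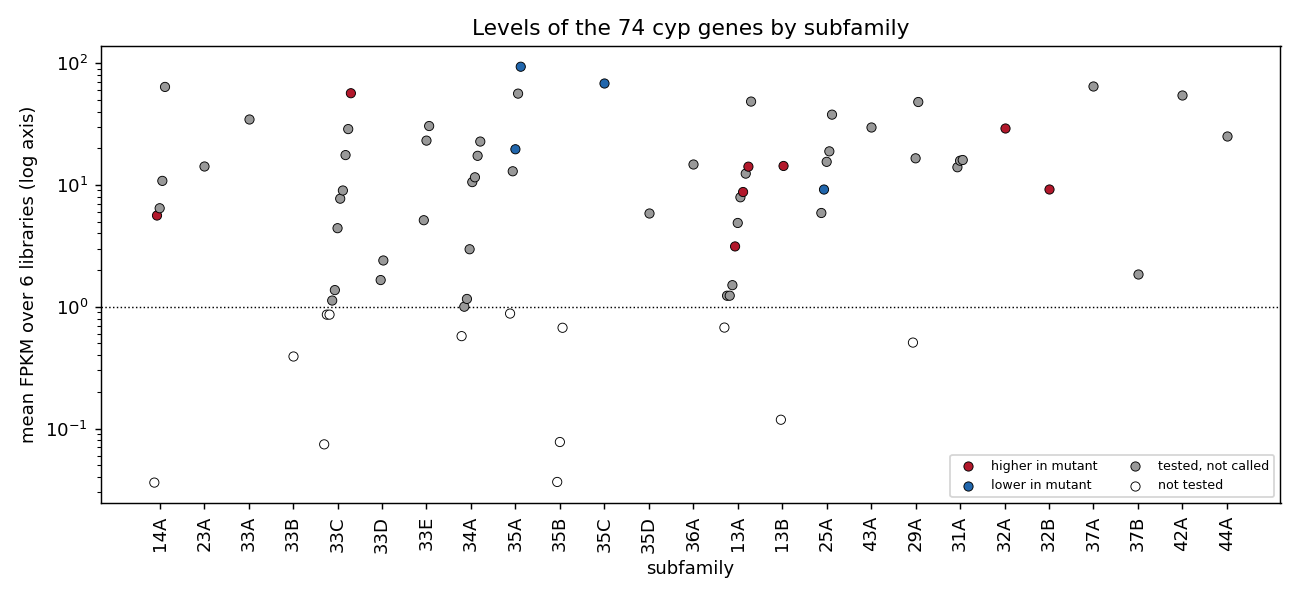
Mean FPKM over the 6 libraries (log axis) of each of the 74 cyp genes, placed by subfamily; the dotted line is the minimum of 1 FPKM for testing. Red and blue points are the genes called higher or lower in blmp-1(tm548), grey points were tested and not called, and open points were not tested; 13 genes lie below the line, and the called genes lie between 3.13 and 93.4 FPKM.

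The 6 libraries were compared to ask which cyp transcripts differ in larvae that carry the blmp-1 mutation. Expression of 8 cyp genes rose and of 4 fell in the mutant. The genes that rose were cyp-33C8, cyp-14A4, cyp-13A5, cyp-13A8, cyp-13A12, cyp-13B1, cyp-32A1 and cyp-32B1, with log2 differences of 1.07 to 2.20. The genes that fell were cyp-35A2, cyp-35A5, cyp-35C1 and cyp-25A1, with smaller log2 differences of -0.34 to -0.85. The sum over all 74 genes was 1148 to 1192 FPKM in the WT libraries and 1224 to 1247 in the mutant libraries.

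The test took in the 61 of the 74 genes whose mean reached 1 FPKM and left out 13. A gene was called at a Benjamini-Hochberg adjusted p under 0.05 from limma on log2(FPKM + 1), adjusted over all 17058 tested features (n = 3 per group), and log2 differences are on that scale. The 12 calls are 19.7% of the tested cyp genes, where 6.40% of all tested features were called (3.34% higher and 3.06% lower). A log2 difference of at least 1 in size was seen in 10 of the 61, or 16.4%, against 7.47% of all tested features. The median log2 difference of the 61 was 0.06 and the median size 0.34, against 0.00 and 0.15 over all tested features. The groups did not overlap for 30 of the 61, 19 above and 11 below WT, which is 49.2% where the share was 28.7% over all tested features. At an unadjusted p under 0.05 there were 15 higher and 13 lower cyp genes, where 11.1% of all tested features were higher and 11.8% lower at that threshold. Of these 28 genes 16 missed the adjusted threshold. These shares were not tested against each other. Among the 61, cyp-13A7, cyp-13A8, cyp-13A11, cyp-34A5 and cyp-37B1 had WT means below 1 FPKM and reached the minimum through the mutant libraries. In cyp-34A10 only the mutant mean was below 1 FPKM. The counts of higher genes and the median can thus lean upward. With a minimum mean of 5 FPKM, limma gave 12 higher and 12 lower of 47 at an unadjusted p under 0.05. With no filter it gave 16 and 13 of 74.

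The number called changed when single libraries were left out. Each such fit also has fewer samples, and that cannot be told apart from the library left out. Leaving out WT replicate 2, or replicate 1 or 2 of the mutant, left 5 cyp genes that rose. A single gene fell when WT replicate 1 was left out, and 2 fell when WT replicate 3 was. By limma, 0 fell without WT replicate 2 or mutant replicate 2, with 12 and 10 lower at an unadjusted p under 0.05. The calls of cyp-33C8, cyp-14A4, cyp-13A5, cyp-13A8 and cyp-13B1 held without any single library. Their highest limma adjusted p there was 0.00522, 0.0495, 0.0360, 0.0497 and 0.0370 in that order, so cyp-14A4 and cyp-13A8 came close to the threshold.

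**Figure D2:**
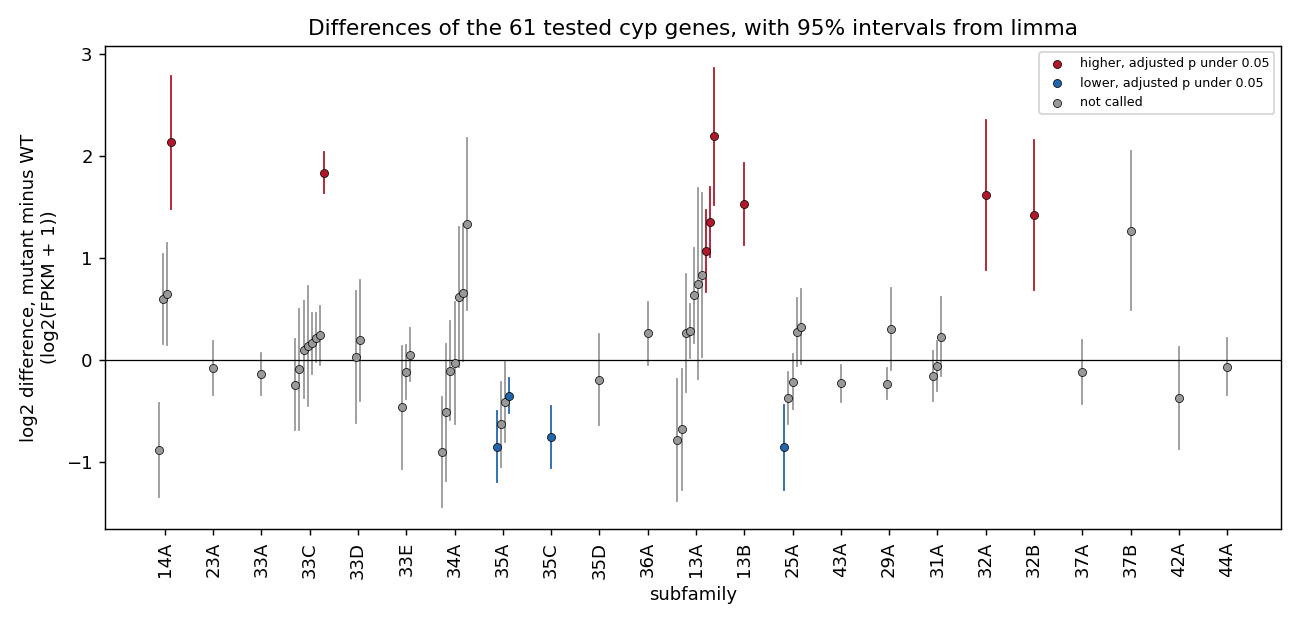
The log2 difference of mutant minus WT, on log2(FPKM + 1), of the 61 tested cyp genes by subfamily, with 95% intervals from limma (n = 3 per group). Red and blue mark the 8 genes called higher and the 4 called lower; the 4 tested genes of 35A and the single gene of 35C lie below 0, and the genes of 13A lie on both sides of it.

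Among the CYP2-type genes, cyp-33C8 (R08F11.3) rose with the lowest adjusted p of all 61 cyp genes. It was at 24.1, 22.1 and 26.3 FPKM in WT replicates 1, 2 and 3 and at 83.1, 90.8 and 93.2 FPKM in mutant replicates 1, 2 and 3. The groups were far apart, and the lowest mutant library was above 3 times the highest WT library. The log2 difference was 1.84 (SE 0.0825, limma adjusted p = 0.000489), a 3.58-fold higher value on the log2(FPKM + 1) scale. In the mutant cyp-33C8 thereby reached the level of cyp-35A2, which was at 82.2 ± 6.12 FPKM there (SD, n = 3).

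No other gene of family 33 was called. Of the 11 genes of 33C, 8 were tested, and the 7 others had log2 differences between -0.24 and 0.25. The closest in level was cyp-33C9 (C50H11.15), with means of 26.3 ± 3.43 FPKM for WT and 31.2 ± 2.70 FPKM for the mutant, where the 95% interval of the log2 difference was -0.04 to 0.53. The 3 untested genes, cyp-33C1, cyp-33C2 and cyp-33C11, had means below 1 FPKM. As 33C genes are related copies, the counting could split reads between them. In 33E, cyp-33E2 (F42A9.5), which in the worm makes eicosanoids from polyunsaturated fatty acids in the pharynx, was at 29.9 ± 3.61 and 31.03 ± 2.26 FPKM (log2 difference 0.06, 95% interval -0.20 to 0.32).

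In 14A a single gene rose, cyp-14A4. The gene cyp-14A4 (R04D3.1) was at 1.55, 1.33 and 1.26 FPKM in WT and at 7.43, 14.2 and 7.91 FPKM in mutant replicates 1, 2 and 3. All mutant libraries were higher than all WT libraries, and replicate 2 stood above the other mutant libraries. The log2 difference was 2.14 (SE 0.267, limma adjusted p = 0.0105), from a WT level of about 16.7 estimated reads per library. In the same run of genes, cyp-14A2 (K09A11.3) went the other way in value, from 6.66, 9.87 and 9.47 FPKM to 3.83, 4.61 and 4.16 FPKM. Its groups did not overlap, but its adjusted p of 0.05004 lay just above the threshold (log2 difference -0.88, SE 0.189), and it passed in 7 of 15 alternative settings, with adjusted p over them of 0.0056 to 0.182.

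The most abundant 14A gene was cyp-14A5 (F08F3.7), at 66.3, 45.8 and 38.3 FPKM in WT and 84.5, 81.3 and 66.5 FPKM in the mutant. WT replicate 1 lay just under the lowest mutant library, and the gene was not called (log2 difference 0.65, adjusted p = 0.131). It passed once WT replicate 1 was left out (adjusted p = 0.0321, with 0.00874 to 0.327 over the alternatives). For cyp-14A1 (K09A11.2) the values were 8.33 ± 1.04 and 13.3 ± 2.68 FPKM (log2 difference 0.60, adjusted p = 0.118), and cyp-14A3 was too low to test.

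The 35A and 35C genes are known from the worm as enzymes of the intestine that foreign compounds induce, and cyp-35A2 also acts in fat storage. All 4 tested 35A genes and cyp-35C1 had lower means in the mutant, and 3 of these 5 were called. The summed level of the 5 genes of 35A was 206, 220 and 206 FPKM in WT and 173, 139 and 154 FPKM in the mutant, without overlap. The gene cyp-35A2 (C03G6.15), the most abundant of the family, was at 97.9, 110 and 106 FPKM in WT and at 81.4, 76.6 and 88.7 FPKM in the mutant. Its fall was small beside the level, with a log2 difference of -0.34 (SE 0.0716, adjusted p = 0.0451).

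The gene cyp-35A5 (K07C6.5) fell from 25.3, 28.8 and 22.4 FPKM to 16.1, 12.1 and 13.1 FPKM (log2 difference -0.84, SE 0.143, adjusted p = 0.0255). The gene cyp-35C1 (C06B3.3) fell from 96.1, 89.0 and 74.7 FPKM to 58.5, 47.9 and 46.5 FPKM (log2 difference -0.75, SE 0.124, adjusted p = 0.0237). For both, every mutant library was below every WT library. In cyp-35A3 (K09D9.2) mutant replicate 1 lay among the WT libraries: WT values were 66.8, 64.3 and 60.2 FPKM and mutant values 62.1, 40.7 and 42.99 FPKM (adjusted p = 0.204).

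The gene cyp-35A4 (C49G7.8) was at 15.1, 15.98 and 16.3 FPKM in WT and at 12.9, 8.48 and 8.79 FPKM in the mutant, without overlap (adjusted p = 0.0925). Mutant replicate 1 was again the highest of its group, and both genes passed when it was left out (adjusted p = 0.0279 for cyp-35A3 and 0.0474 for cyp-35A4). The range over the alternatives was 0.0279 to 0.427 for cyp-35A3 and 0.0474 to 0.259 for cyp-35A4. The call of cyp-35A2 held only when mutant replicate 3 was the library left out (otherwise adjusted p = 0.0508 to 0.167). Leaving out WT replicate 1 ended those of cyp-35A5 and cyp-35C1 (adjusted p = 0.0650 and 0.0557), as did leaving out WT replicate 2 (0.106 and 0.104), mutant replicate 2 (0.0898 and 0.0916) or mutant replicate 3 (0.0566 and 0.0538).

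The other CYP2-type xenobiotic genes were low or not called. The most abundant 35B gene, cyp-35B1 (K07C6.4), also named for its place downstream of the insulin pathway factor DAF-16, was at 0.626 ± 0.157 and 0.717 ± 0.170 FPKM and was not tested. The gene cyp-35D1 (F14H3.10), which acts on the anthelmintic thiabendazole in the worm, was at 6.27 ± 0.946 and 5.38 ± 0.846 FPKM (log2 difference -0.19, 95% interval -0.63 to 0.25). The gene cyp-36A1 (C34B7.3), which acts downstream of the oxygen sensor EGL-9 in the worm, was at 13.3 ± 1.70 and 16.2 ± 1.35 FPKM (log2 difference 0.27, adjusted p = 0.275).

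None of the 7 tested genes of 34A was called, although 2 differed in opposite directions at an unadjusted p under 0.05. The gene cyp-34A2 (T10H4.11) was at 15.2, 9.91 and 4.94 FPKM in WT and at 24.6, 24.3 and 25.05 FPKM in the mutant. The mutant libraries were close together and above all WT libraries, whereas WT replicate 1 was more than 3 times WT replicate 3 (log2 difference 1.34, adjusted p = 0.0827). Leaving out WT replicate 1 made it pass (adjusted p = 0.0351, with 0.0109 to 0.214 over the alternatives). The gene cyp-34A9 (B0213.15), another gene downstream of DAF-16, was at 14.96, 13.98 and 16.6 FPKM in WT and at 6.58, 6.11 and 11.1 FPKM in the mutant.

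The groups of cyp-34A9 did not overlap, and mutant replicate 3 was the nearest to WT (log2 difference -0.90, adjusted p = 0.0738). Without that library the adjusted p was 0.0153 (range over the alternatives 0.00824 to 0.214). The most abundant 34A gene, cyp-34A8 (B0213.14), was at 26.9 ± 8.16 and 18.5 ± 5.25 FPKM (adjusted p = 0.335). In cyp-34A1, cyp-34A2, cyp-34A8, cyp-14A5 and cyp-32A1 WT replicate 1 was the highest WT library and WT replicate 3 the lowest. This order was not particular to them: cyp-35C1 and cyp-14A4, among others, had it too. The reverse order was seen in cyp-32B1, cyp-13A12, cyp-37A1 and cyp-42A1, among others. Neither order was counted over the family.

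Among the CYP3-type genes, those of 13A and 13B held 4 of the 8 rises. The gene cyp-13B1 (F02C12.5) rose from 7.01, 5.87 and 7.64 FPKM to 23.1, 24.5 and 17.7 FPKM (log2 difference 1.53, SE 0.164, adjusted p = 0.00672). The gene cyp-13A5 (T10B9.2) rose from 4.19, 4.34 and 4.90 FPKM to 11.5, 13.6 and 13.97 FPKM (log2 difference 1.35, SE 0.141, adjusted p = 0.00624). For both, the lowest mutant library was more than 2 times the highest WT library.

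The gene cyp-13A8 (T10B9.4) was nearly silent in WT, at 0.379, 0.569 and 0.386 FPKM or about 5.49 estimated reads per library. It was at 3.99, 5.44 and 7.996 FPKM in the mutant, or about 71.5 reads, and each mutant library exceeded the WT libraries. Its log2 difference of 2.20 (SE 0.276, adjusted p = 0.0106) was 3.40 with a pseudocount of 0.1 in place of 1. The gene passed the filter of 1 FPKM through the mutant libraries only, and it was also called with no filter on low values.

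The gene cyp-13A12 (F14F7.3) is known from the worm for making eicosanoids that change behavior on reoxygenation, downstream of EGL-9. It rose from 7.53, 8.65 and 9.98 FPKM to 18.5, 23.4 and 16.7 FPKM (log2 difference 1.07, SE 0.166, adjusted p = 0.0192), with no overlap. The call ended when WT replicate 2 was left out (adjusted p = 0.0835), and likewise for mutant replicate 1 (0.0725) and mutant replicate 2 (0.0627). Its neighbour cyp-13A11 (F14F7.2) was at 0.447, 0.559 and 0.683 FPKM in WT and 1.96, 2.86 and 0.882 FPKM in the mutant, and passed the filter through the mutant libraries (log2 difference 0.83, adjusted p = 0.208).

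The 11 genes of 13A did not go one way. Of the 10 tested, 3 rose and none fell (limma, 6 higher and 2 lower at an unadjusted p under 0.05). Their log2 differences ran from -0.78 to 2.20 with a median of 0.69. Of these genes cyp-13A7, cyp-13A8 and cyp-13A11 had WT means below 1 FPKM and passed the filter through the mutant libraries. The gene left out, cyp-13A3 (T10B9.5), was at 0.894 ± 0.274 FPKM in WT and 0.454 ± 0.213 FPKM in the mutant. The count and the median thus hold only genes that passed, and can lean upward. Lower means were seen in cyp-13A4 (T10B9.1), at 7.17, 5.79 and 6.11 FPKM in WT and 2.32, 3.06 and 4.78 FPKM in the mutant (adjusted p = 0.128). The groups of cyp-13A4 did not overlap, and it passed without mutant replicate 3 (adjusted p = 0.0479, range over the alternatives 0.0207 to 0.296). The gene cyp-13A6 (T10B9.3) was at 15.4 ± 2.93 and 9.40 ± 3.08 FPKM, with mutant replicate 3 inside the WT range (log2 difference -0.68, adjusted p = 0.171).

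The most abundant 13A gene, cyp-13A2 (T10B9.7), was at 44.9, 39.8 and 45.3 FPKM in WT and 56.9, 57.7 and 45.5 FPKM in the mutant (log2 difference 0.29, adjusted p = 0.188). Mutant replicate 3 lay just above the highest WT library, and without it the gene passed (adjusted p = 0.0468, range over the alternatives 0.0126 to 0.429). The gene cyp-13A10 (ZK1320.4) was at 6.04 ± 1.55 and 9.79 ± 0.944 FPKM, with no overlap and an adjusted p of 0.117. The gene cyp-13A7 (T10B9.10), which the drug rifampicin induces in the worm, was at 0.876 ± 0.694 and 2.13 ± 0.936 FPKM with overlapping groups.

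Family 25 held the remaining fall. The gene cyp-25A1 (C36A4.1) went from 11.5, 11.2 and 13.4 FPKM in WT to 5.22, 5.86 and 7.76 FPKM in the mutant, with no overlap (log2 difference -0.85, SE 0.172, adjusted p = 0.0409). The call held only when mutant replicate 3 was left out, with adjusted p = 0.0894 to 0.138 for the other libraries. Its neighbour and the most abundant gene of 25A, cyp-25A2 (C36A4.2), was at 38.2, 41.9 and 48.0 FPKM in WT and 30.2, 32.4 and 35.7 FPKM in the mutant, also without overlap. It was not called (log2 difference -0.37, adjusted p = 0.103). The gene cyp-43A1 (E03E2.1) was at 32.5 ± 1.03 and 27.8 ± 1.97 FPKM (log2 difference -0.22, adjusted p = 0.148).

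**Figure D3:**
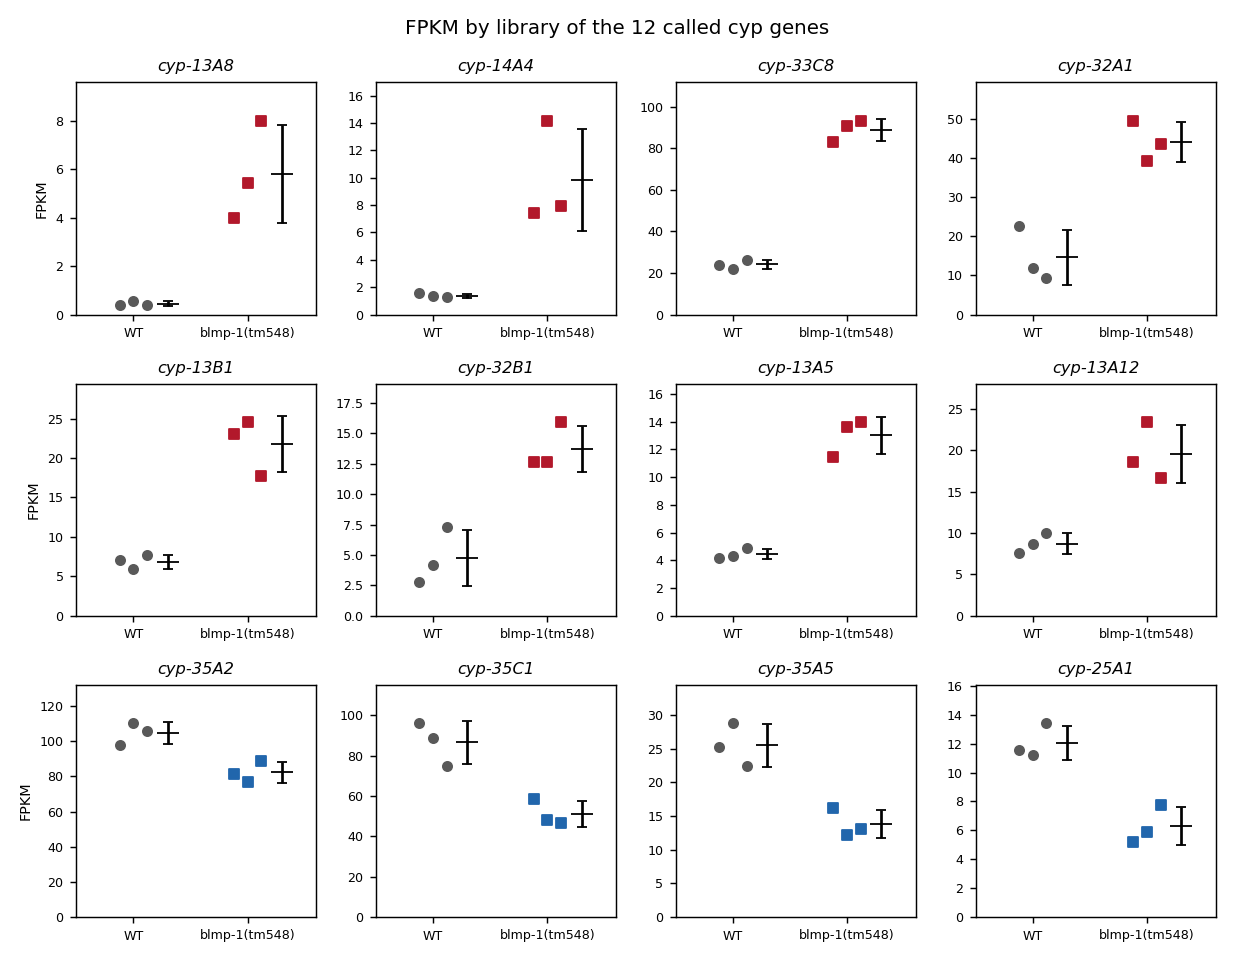
FPKM in each library of the 12 called cyp genes, ordered by log2 difference; grey circles are WT and squares blmp-1(tm548), red where the gene rose and blue where it fell, with the mean and SD (n = 3) at the right of each group. In no panel do the groups overlap, and the WT libraries of cyp-32A1 and cyp-32B1 are spread widest for their mean, from 9.25 to 22.5 and from 2.76 to 7.32 FPKM.

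Among the CYP4-type genes, both members of family 32 rose. The gene cyp-32A1 (C26F1.2) was at 22.5, 11.97 and 9.25 FPKM in WT replicates 1, 2 and 3 and at 49.5, 39.3 and 43.6 FPKM in the mutant. WT replicate 1 was more than 1.5 times either other WT library, yet below every mutant library (log2 difference 1.62, SE 0.303, adjusted p = 0.0334). The gene cyp-32B1 (Y5H2B.5) was at 2.76, 4.20 and 7.32 FPKM in WT and 12.6, 12.7 and 15.9 FPKM in the mutant. Its groups did not overlap either (log2 difference 1.43, SE 0.303, adjusted p = 0.0482).

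In cyp-32B1 the highest WT library was replicate 3, and in cyp-32A1 it was replicate 1. Of the 6 ways to leave out a library, the call of cyp-32A1 held only without WT replicate 1 (otherwise adjusted p = 0.0616 to 0.130) and that of cyp-32B1 only without WT replicate 3 (otherwise 0.0735 to 0.167). The call of cyp-32B1 was also lost with a pseudocount of 0.1 or 0.5 (adjusted p = 0.0517 and 0.0502), with no filter (0.0663) and with a prior variance without a trend (0.0695). The last of these ended that of cyp-32A1 too (0.0586). The gene cyp-37B1 (F28G4.1) was at 0.483, 0.666 and 0.704 FPKM in WT and 4.89, 2.44 and 1.93 FPKM in the mutant, from about 8.34 to 42.02 estimated reads per library. It passed the filter through the mutant libraries only. Its groups did not overlap and the mutant libraries were far apart, and it was not called (log2 difference 1.27, adjusted p = 0.0763).

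None of the other CYP4-type genes was called (limma, 1 lower at an unadjusted p under 0.05 beside cyp-37B1 higher), and cyp-29A4 (B0331.1), at a mean of 0.508 FPKM, was not tested. The gene cyp-42A1 (Y80D3A.5) was at 50.4, 63.03 and 70.5 FPKM in WT and at 40.7, 40.3 and 63.02 FPKM in the mutant, where mutant replicate 3 lay among the WT libraries (log2 difference -0.36, adjusted p = 0.351). The gene cyp-37A1 (F01D5.9) was at 55.5, 70.7 and 78.5 FPKM in WT and 63.3, 58.1 and 65.6 FPKM in the mutant, with overlapping groups (log2 difference -0.12, 95% interval -0.43 to 0.20). The gene cyp-29A2 (T19B10.1) was at 51.8 ± 1.61 and 44.1 ± 2.57 FPKM, with no overlap (log2 difference -0.23, adjusted p = 0.0891). The genes cyp-31A2 (H02I12.8) and cyp-31A3 (Y17G9B.3), which act together in the lipid layer of the worm eggshell, were at 14.7 ± 0.425 and 14.6 ± 1.30 FPKM in WT and 13.2 ± 0.961 and 17.5 ± 3.35 FPKM in the mutant.

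The adjusted p was 0.420 for cyp-31A2 and 0.446 for cyp-31A3. Their close copy cyp-31A1 is a pseudogene and was at 56.0 ± 0.558 and 58.2 ± 2.40 FPKM, above both. Since these genes are near-identical, the counting could have placed reads of any of them on the others. The single mitochondrial-type gene, cyp-44A1 (ZK177.5), was at 25.5 ± 1.31 and 24.5 ± 3.49 FPKM (log2 difference -0.06, 95% interval -0.34 to 0.22).

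Many of the genes lie beside each other. In the WBcel235 annotation 44 of the 74 fall into 12 runs in which neighbouring members have at most 2 other protein-coding genes between them, and 30 stand alone. Of the 12 called genes 8 lie in runs, spread over 7 of the 12. Only the run from cyp-13A1 to cyp-13A8 held more than a single called gene, with 2 that rose. Calls of both directions could thus have met in that run alone. In the run of 8 genes from cyp-13A1 to cyp-13A8, the order of mean differences was mixed: cyp-13A5 rose between cyp-13A4 and cyp-13A6, whose means were lower in the mutant. The pseudogene cyp-13A9 in the same stretch had means of 2.29 ± 0.363 FPKM for WT and 0.942 ± 0.391 FPKM for the mutant.

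The run of 10 genes from cyp-35A5 to cyp-34A10 held cyp-35A5, which fell, next to cyp-35B1, cyp-35B2 and cyp-35B3, all under 1 FPKM. In the run of 5 genes from cyp-33C4 to cyp-33C7 none was called, with 0 at an unadjusted p under 0.05 by limma, while cyp-33C8 stands alone. In the run of cyp-25A1, cyp-25A2 and cyp-25A3 the first fell, and cyp-25A3 (C36A4.3), on the opposite strand, was at 17.0 ± 2.67 and 20.7 ± 2.06 FPKM.

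**Figure D4:**
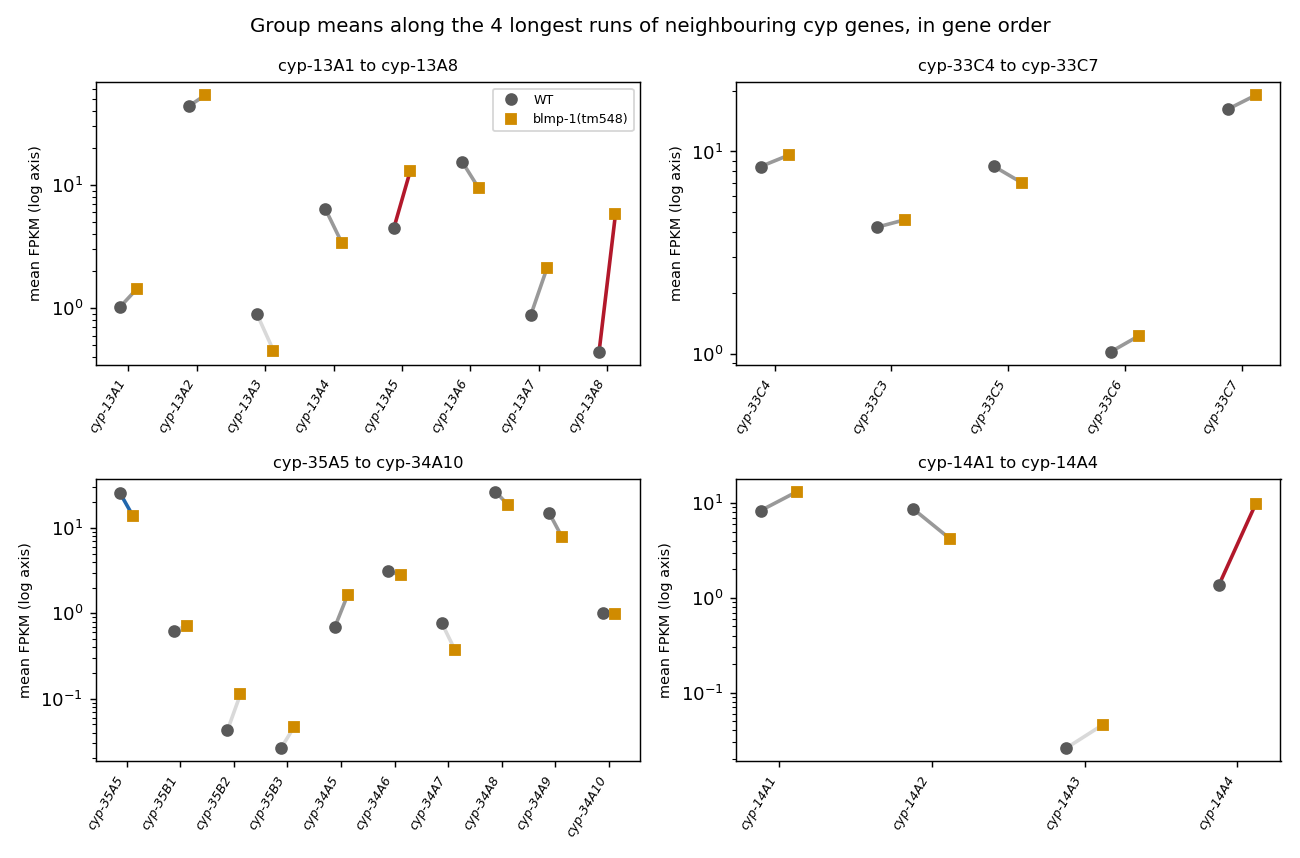
Mean FPKM (log axis) of WT (grey circles) and blmp-1(tm548) (orange squares) for the cyp genes of the 4 longest runs, in gene order; a red line joins the means of a gene that rose, a blue line those of a gene that fell, and grey lines those of genes not called or not tested. Neighbours differ in level and in direction, as in cyp-13A4, cyp-13A5 and cyp-13A6, at 6.36, 4.48 and 15.4 FPKM in WT and 3.39, 13.01 and 9.40 FPKM in the mutant.

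Genes that serve the P450 enzymes were looked at as a list of 23: the reductase, cytochromes b5, heme transport genes, regulators of the xenobiotic response and the hormone P450 gene daf-9. Of these 2 rose and none fell, where 3.34% of all tested features were called higher and 3.06% lower. At an unadjusted p under 0.05 limma gave 6 higher and 0 lower, against 11.1% and 11.8% of all tested features. The 4 higher genes that missed the adjusted threshold were hrg-2, wdr-23, daf-16 and sbp-1 (limma adjusted p = 0.116 to 0.214). The groups did not overlap for 8 genes above WT and 1 below, where the share was 28.7% over all tested features. These shares were not tested against each other. The median log2 difference was 0.08. The reductase gene emb-8 (K10D2.6) was at 90.4, 103 and 107 FPKM in WT and 103, 108 and 110 FPKM in the mutant (log2 difference 0.10, 95% interval -0.07 to 0.27). The cytochrome b5 genes cytb-5.1 and cytb-5.2 were at 215 ± 7.28 and 204 ± 9.49 FPKM in WT and 204 ± 4.12 and 195 ± 5.26 FPKM in the mutant. Both lay near the level of abundant genes such as act-5, where it was not tested whether FPKM was held down.

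The gene hrg-3 (F58E6.7), whose product carries heme out of the intestine in the worm, rose from 17.1, 16.5 and 17.4 FPKM to 26.9, 27.7 and 39.4 FPKM (log2 difference 0.83, SE 0.153, adjusted p = 0.0324). The gene daf-9 (T13C5.1), a P450 of dafachronic acid synthesis that lacks a cyp- symbol and so is no member, was at 32.6, 32.9 and 33.3 FPKM in WT and 40.5, 43.3 and 42.3 FPKM in the mutant. Its log2 difference was 0.34 (SE 0.0552, adjusted p = 0.0220). Both had groups without overlap. The call of hrg-3 held only when mutant replicate 3 was left out (otherwise adjusted p = 0.0662 to 0.127). That of daf-9 ended when WT replicate 2 or 3 (0.104 and 0.0568) or replicate 1 or 2 of the mutant (0.0701 and 0.0939) was left out. By limma, 0 genes of the list rose when any of these 4 libraries was left out, with 4, 5, 5 and 2 higher at an unadjusted p under 0.05, and 1 rose without WT replicate 1.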

How the data were processed

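The authors deposited FPKM values for each feature in each library. The submitters' processing notes list TopHat2 2.0.7, Cuffdiff and Cufflinks 2.0.2. Which genome build, annotation and strand setting were used, and how duplicate or multiply mapped reads were treated, is not given in the sources used here, so no coordinates are printed. The WBcel235 annotation supplied symbols, biotypes, exon lengths and gene order through the sequence name of each feature: 44063 of 45343 features matched, and all 74 members. Groups were taken from the sample titles.

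FPKM values are not counts, so features with a mean of at least 1 FPKM were fitted as log2(FPKM + 1) by limma 3.58.1 (R 4.3.3). The model held only the group, the prior variance followed the mean, and p-values were adjusted by Benjamini-Hochberg over 17058 features. The scale understates changes of low genes. The fit was tested on simulated data. Depth was estimated from the most common ratios of low values between libraries and from 674 genes with a single transcript of 1000 to 4000 nt, where the lowest value shared by 2 or more libraries was taken as 1 read. Read numbers are estimates, with no interval.

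The genes named were all called members, all with an unadjusted p under 0.05, the 5 most abundant, the most abundant of each subfamily with at least 3 members, cyp-33C8, called partner genes, emb-8 and daf-9. Other cyp genes were named after their values were seen. The members, lists and tests were chosen with earlier results of these data known.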

Additional observations from a re-analysis of the deposited data

How the results depend on the processing

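Over 15 alternative settings, the number of cyp genes that rose was 8 as reported, 18 with library weights and otherwise 5 to 9, with 5 and 9 also the lowest and highest without a single library. The number that fell was 4 as reported, 2 with no filter on low values, 11 with library weights, and 0 to 4 without a single library. It was 5 with a pseudocount of 0.1 or 0.5, with 75th percentile scaling and with at least 300 nt of exon. Weights ran from 0.439 for mutant replicate 3 to 4.07 for WT replicate 2. Partner genes that rose were 2 as reported, 4 with library weights, 1 with a prior variance without a trend and 0 to 2 without a single library; partner genes that fell were 0 as reported and 1 with library weights (limma, 0 and 2 at an unadjusted p under 0.05). The cause of these moves was not tested, and leaving out a library also leaves fewer samples. All 12 calls were kept with library weights, with 75th percentile scaling and with features of at least 300 nt of exon only, 11 with a pseudocount of 0.1 or 0.5, and 9 with no filter or with a prior variance without a trend. The calls lost were cyp-32B1 under both pseudocounts, cyp-25A1, cyp-35A2 and cyp-32B1 with no filter (adjusted p = 0.0649, 0.0569 and 0.0663), and cyp-35A2, cyp-32A1 and cyp-32B1 without a trend (0.0882, 0.0586 and 0.0695). Of the 11 called genes that pass a minimum mean of 5 FPKM, 11 were called there. Without a single library 5 to 9 of the 12 were kept. With the replicate number as a block, 8 rose and 4 fell, of which 10 were called as reported, cyp-35A2 and cyp-35A5 were lost (adjusted p = 0.0741 and 0.0558), and cyp-25A2 and cyp-34A8 passed (adjusted p = 0.0443 and 0.0430). Whether the numbers pair the libraries is not known. Deviations of same-numbered libraries correlated at 0.13, -0.04 and 0.07 for replicates 1, 2 and 3. Replicates 1 and 3 of each group correlated best with their own number, and replicate 2 of each group did not. Among the genes named by the rules given above, 1 changed sign. There cyp-33E2 had a log2 difference of -0.013 without WT replicate 3, within -0.013 to 0.15 over the 6 left-out libraries. The cyp genes named after their values were seen were not followed one by one over the settings. Nor were the uncalled partner genes other than emb-8. The 75th percentile scaling moved the median log2 difference of all tested features by 0.01. The 13 untested genes were left out by the minimum of 1 FPKM, and reach from under 1 estimated read per library in cyp-14A3 to 14.6 in WT and 8.74 in the mutant for cyp-33C11.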
